A study of Homo sapiens with 12 samples.

Results

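Interferon-stimulated effector genes are the genes that a cell switches on after it has sensed interferon, and 51 of them were followed in MiaPaca2 cells, an established human pancreatic ductal adenocarcinoma (PDAC) cell line. The members were a fixed list of symbols, chosen with earlier results of these data known. Shares of members set beside those of all genes are therefore descriptions only. All 51 members were matched to an identifier among the 63677 that the count tables list. RNA-seq was performed in 12 libraries, 3 in each of 4 groups of wild-type cells treated for 24 h. The Con group received DMSO, the CPT group received 1 µM CPT (calcipotriol, a Vitamin D analogue), the GTA+5-Aza group received 2 mM GTA and 1 µM 5-Aza, and the CPT+GTA+5-Aza group received all 3 agents at these doses. GTA (glyceryl triacetate) is an acetate precursor that raises acetyl-CoA and histone acetylation, and 5-Aza is an inhibitor of DNA methylation. Cells given both are called primed here. GTA and 5-Aza were always given together in these libraries, so their separate effects cannot be told apart, and a single cell line was sequenced.

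Type I and type III interferons bind their receptors and, through the JAK1 and TYK2 kinases, activate a complex holding STAT2 and IRF9 that binds the interferon-stimulated response element (ISRE) in the promoters of its target genes. Type II interferon acts mainly through another element, GAS. The products include proteins that sense or bind viral RNA (the OAS and IFIT families) and the ubiquitin-like protein ISG15 with its conjugating enzymes. Others are membrane proteins that block viral entry (the IFITM family) and GTPases (the MX and GBP families). Loss of DNA methylation is known to start this programme in some cancer cells through double-stranded RNA from repeats.

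RefSeq promoter windows on GRCh38.p14, from 250 bases before to 50 bases after the start of the gene, were found for 41 of the 51 members, and the first window was taken where several were listed. In 40 of these 41 windows, bases just after the start lay in a GENCODE transcript of the gene. The ISRE core GAAANNGAAA, searched on both strands, was present in 27 of the 41 windows (65.9%), against 3.57% of all 35116 windows. The GAS core TTCNNNGAA was present in 9 of the 41 windows (22.0%), against 7.66% of all windows. Both cores are counted as matches of letters, and a match is not evidence of binding. The stretches before the start of 10 members are given because these genes share the ISRE letters but differ in their values in the libraries, with the matches in capitals (the complement of the core reads TTTCNNTTTC).
HERC5: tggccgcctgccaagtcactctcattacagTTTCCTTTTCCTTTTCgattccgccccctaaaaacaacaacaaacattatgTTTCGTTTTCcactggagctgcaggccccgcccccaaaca
IFIT3: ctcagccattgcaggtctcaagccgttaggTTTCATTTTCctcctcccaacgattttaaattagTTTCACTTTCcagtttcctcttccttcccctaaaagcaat
OAS3: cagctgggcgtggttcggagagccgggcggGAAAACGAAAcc
ISG15: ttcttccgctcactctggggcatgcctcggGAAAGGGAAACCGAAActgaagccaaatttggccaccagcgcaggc
PARP14: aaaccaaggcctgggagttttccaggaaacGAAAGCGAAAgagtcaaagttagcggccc
IFITM3: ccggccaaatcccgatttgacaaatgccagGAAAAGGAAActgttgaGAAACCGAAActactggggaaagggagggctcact
IFIT1: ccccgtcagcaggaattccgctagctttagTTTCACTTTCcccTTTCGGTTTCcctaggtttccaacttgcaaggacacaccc
BST2: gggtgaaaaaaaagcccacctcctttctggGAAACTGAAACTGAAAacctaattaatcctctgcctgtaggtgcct
IFI44L: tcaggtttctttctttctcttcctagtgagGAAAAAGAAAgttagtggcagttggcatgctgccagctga
EPSTI1: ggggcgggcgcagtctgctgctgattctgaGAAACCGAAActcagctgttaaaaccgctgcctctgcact
The stretches were HERC5 at chr4:88456964-88457084 (+ strand), IFIT3 at chr10:89327811-89327914 (+ strand), OAS3 at chr12:112938432-112938473 (+ strand), ISG15 at chr1:1013354-1013429 (+ strand), PARP14 at chr3:122680780-122680838 (+ strand), IFITM3 at chr11:320861-320942 (- strand), IFIT1 at chr10:89392477-89392559 (+ strand), BST2 at chr19:17405715-17405790 (- strand), IFI44L at chr1:78620345-78620414 (+ strand) and EPSTI1 at chr13:42992252-42992321 (- strand).

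The first 6 of these genes were higher in primed cells, IFIT1 and BST2 did not pass the test, and IFI44L and EPSTI1 had no count in any of the 12 libraries. The ISRE letters were in 10 of 14 windows of members that were called higher after priming and in 13 of 18 windows of members that were tested and not called. Of the members with too few counts to be tested, 4 of 9 windows held them. By the common definition of a CpG-rich promoter (over 50% of the bases G or C and an observed to expected CpG ratio above 0.6), 15 of the 41 windows were CpG-rich, against 46.8% of all windows. These included 7 of the 14 windows of members called higher, 6 of the 18 of members not called and 2 of the 9 of members not tested.

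The libraries held 16162490 to 21224665 counts, of which the 51 members took 0.108% to 0.133%. The ductal keratins KRT8 and KRT18 were high, at 1409 to 1740 and 644 to 854 CPM (counts per 1000000 with TMM-scaled library sizes), whereas EPCAM and CDH1, epithelial genes of many PDAC lines, reached at most 0.0528 and 0.245 CPM. Of the 8 leukocyte markers, 2 were at 0 in all libraries, and their summed level ran from 0.667 to 1.60 CPM in Con, 0.738 to 1.36 in CPT, 1.23 to 1.41 in GTA+5-Aza and 0.367 to 1.74 in CPT+GTA+5-Aza. CD3E and MS4A1 were at 0, PTPRC was at most 0.214 CPM and CD14 was at most 1.58 CPM. Of the plasmacytoid dendritic cell markers, CLEC4C and LILRA4 were at 0 in every library and IL3RA ran from 0.588 to 2.51 CPM. Some markers moved with priming. The summed level of 8 ductal markers was 2407 to 2556 CPM in Con, 2247 to 2687 in CPT, 2658 to 2840 in GTA+5-Aza and 2703 to 2799 in CPT+GTA+5-Aza. SOX9 rose by a log2 fold change of 0.38 ± 0.06 without CPT and 0.54 ± 0.06 with it (adjusted p = 4.36e-05 and 2.99e-07). KRT19 rose by 0.27 ± 0.09 and 0.28 ± 0.10 (adjusted p = 0.0467 and 0.0472). KRT7 rose by 2.34 ± 0.58 without CPT (adjusted p = 0.00597) and was not called with it (1.41 ± 0.55, adjusted p = 0.0776). KRT18 was called with CPT (0.18 ± 0.06, adjusted p = 0.0436) and not without it (0.16 ± 0.06, adjusted p = 0.0800). The summed level of 5 fibroblast markers, nearly all of it COL1A2, was 790 to 842 CPM in Con, 689 to 763 in CPT, 874 to 944 in GTA+5-Aza and 815 to 842 in CPT+GTA+5-Aza. COL1A1 rose by 3.62 ± 0.68 (adjusted p = 0.000425) and 3.46 ± 0.70 (adjusted p = 0.000934) from at most 0.275 CPM in unprimed libraries to 1.11 to 2.204 in primed ones, and COL1A2 rose by 0.15 ± 0.05 and 0.19 ± 0.05 (adjusted p = 0.0410 and 0.0102). The fibroblast markers LUM, DCN and PDGFRA were at 0 or at most 0.227 CPM in every library. The part of these genes in the results on the members was not tested. In these bulk libraries, fewer cells that express a gene and less RNA per cell cannot be told apart. The study's methods call the samples of an experiment independent, and neither they nor the labels say whether these were separate cultures or days, so p-values measure the spread between these libraries.

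Priming raised some of the effector genes, most of them by less than 2-fold. Of the others, 1 was called lower without CPT, and the rest did not pass the test or had too few counts for one. Of the 40 members with enough counts to be tested, 15 were higher in GTA+5-Aza than in Con at an adjusted p below 0.05 and 1 was lower, while 9.95% of all 17123 genes tested were called higher and 7.53% lower. The same comparison in the presence of CPT, CPT+GTA+5-Aza against CPT, called 17 members higher and 0 lower, against 9.57% and 7.39% of all genes. The highest log2 fold changes among the called members were those of HERC5, OASL and OAS3 without CPT and of HERC5, IFITM1 and UBE2L6 with CPT. With DESeq2, 15 members were called higher and 1 lower without CPT, and 18 higher and 0 lower with it.

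The median log2 fold change of the 40 tested members was 0.40 without CPT and 0.45 with CPT, where that of all genes was 0.01 in both comparisons. By the DEG criterion of fold change above 1.5 and unadjusted P below 0.05, 15 members were up-regulated without CPT and 14 with CPT, against 6.82% and 6.93% of all genes. In 21 and 20 of the 40 members, respectively, all primed libraries lay above all libraries of the comparator group, against 18.1% and 16.4% of all genes. The comparisons share no library, but both come from 1 fit and its shared estimate of the spread. Of the members, 15 were called higher in both. The share of all genes called higher in both was not counted, and is at most the 9.57% called higher with CPT. As a description over these 40 genes, which do not replicate a condition, the changes in the one comparison and the other had a Pearson r of 0.66.

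**Figure D1:**
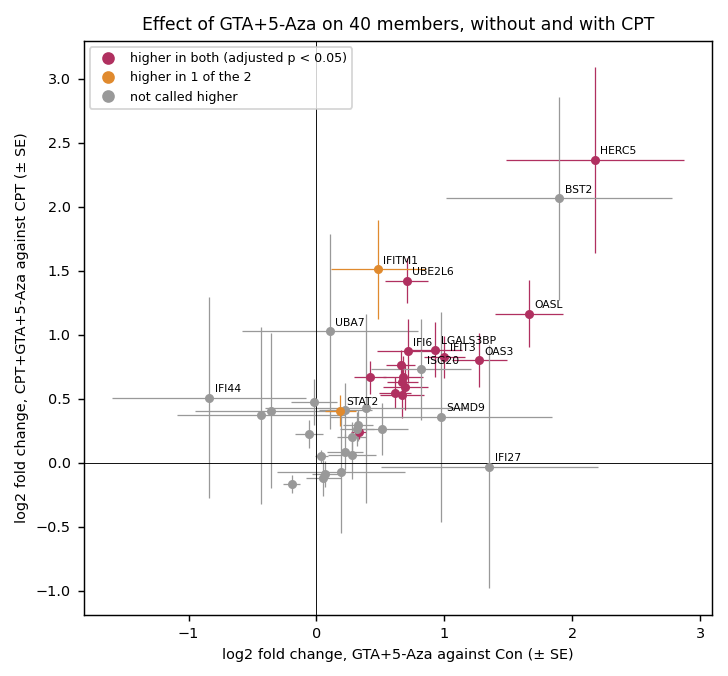
Log2 fold change of each of the 40 tested members in GTA+5-Aza against Con (x axis) and in CPT+GTA+5-Aza against CPT (y axis), with standard errors as bars. The 15 members called higher in both comparisons lie in the upper right, IFITM1 and STAT2 were called in the second alone, and HERC5 and BST2 have the largest values and wide errors.

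The OAS family makes the messenger that activates RNase L on double-stranded RNA, or, for OASL, acts on RNA sensing without that activity. OASL stood at 2.79, 1.57 and 2.14 CPM in Con, at 2.2, 2.26 and 3.93 in CPT, at 7.21, 6.26 and 7.06 in GTA+5-Aza and at 6.07, 8.005 and 4.71 in CPT+GTA+5-Aza. OAS3 stood at 3.21, 3.002 and 2.24 CPM in Con, at 4.12, 3.39 and 3.82 in CPT, at 7.11, 6.61 and 6.72 in GTA+5-Aza and at 5.39, 7.49 and 6.92 in CPT+GTA+5-Aza. For both genes every primed library was above every unprimed one. OASL rose by a log2 fold change of 1.66 ± 0.27 (SE, adjusted p = 7.74e-05) without CPT and 1.17 ± 0.26 (adjusted p = 0.00267) with it. OAS3 rose by 1.27 ± 0.22 (adjusted p = 0.000136) and 0.80 ± 0.21 (adjusted p = 0.00900), the latter not past the threshold without CPT+GTA+5-Aza replicate 2 (adjusted p = 0.0599). OAS3 lies on chromosome 12 from 112938051 to 112976460 (GRCh38), between OAS1 and OAS2, and neither neighbour was called. OAS2 ran from 0.263 to 1.51 CPM in Con and from 0.267 to 1.00 in GTA+5-Aza, with a log2 difference of -0.43 ± 0.66 that did not pass the test. With CPT its log2 difference was 0.37 ± 0.69 (95% interval -1.05 to 1.80), also not past the test. At these low levels, whether OAS2 moved with OAS3 cannot be told. OAS1 had 8, 0 and 1 counts in Con, 0, 4 and 4 in CPT, and 0 in all 6 primed libraries, too few for a test.

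IFIT proteins bind foreign RNA ends and restrict their translation, and their genes lie next to each other on chromosome 10. IFIT3 stood at 6.42, 7.05 and 8.85 CPM in Con, at 8.14, 8.17 and 6.39 in CPT, at 13.1, 17.0 and 14.6 in GTA+5-Aza and at 14.4, 12.3 and 13.7 in CPT+GTA+5-Aza. It rose by a log2 fold change of 1.00 ± 0.16 (adjusted p = 7.14e-05) without CPT and 0.83 ± 0.16 (adjusted p = 0.000679) with it. IFIT2 stood at 18.6, 18.9 and 18.5 CPM in Con and at 29.4, 30.8 and 28.1 in GTA+5-Aza, and at 18.0, 14.0 and 17.5 in CPT and 29.7, 28.6 and 25.5 in CPT+GTA+5-Aza. Its log2 fold changes were 0.66 ± 0.11 (adjusted p = 0.000183) and 0.77 ± 0.12 (adjusted p = 3.68e-05). The Con and primed libraries of both genes were clear of each other. IFIT1 (0.27 ± 0.11, adjusted p = 0.0970) and IFIT5 (0.32 ± 0.12, adjusted p = 0.0642) had smaller differences that did not pass the test in either comparison. In GTA+5-Aza against Con, IFIT5 passed under 5 of 16 alternatives and IFIT1 under 2, with adjusted p down to 0.00341 and 0.0199. IFIT2 and IFIT3 overlap the opposite-strand gene LIPA, and whether the counting used strand is not given in the sources used here.

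ISG15 is attached to other proteins by the E1 enzyme UBA7, the E2 enzyme UBE2L6 and E3 ligases such as HERC5, and is removed by USP18. ISG15 itself stood at 14.8, 17.4 and 17.3 CPM in Con, at 15.3, 18.2 and 14.5 in CPT, at 24.9, 24.8 and 29.2 in GTA+5-Aza and at 26.5, 25.6 and 22.7 in CPT+GTA+5-Aza. It rose by a log2 fold change of 0.67 ± 0.12 (adjusted p = 0.000321) and 0.63 ± 0.12 (adjusted p = 0.000699), with no overlap of primed and unprimed libraries. UBE2L6 stood at 6.15, 9.34 and 7.97 CPM in Con, at 4.23, 6.59 and 5.08 in CPT, at 13.1, 12.02 and 13.2 in GTA+5-Aza and at 14.4, 13.9 and 14.6 in CPT+GTA+5-Aza. Its rise was 0.71 ± 0.17 (adjusted p = 0.00419) without CPT and 1.42 ± 0.18 (adjusted p = 2.01e-06) with CPT, and the CPT libraries were on average the lowest of the 4 groups.

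HERC5 was low throughout, at 0.473, 0.238 and 0.389 CPM in Con, 0.770, 0.0984 and 0 in CPT, 0.748, 2.35 and 1.92 in GTA+5-Aza and 1.27, 1.76 and 1.47 in CPT+GTA+5-Aza. Its log2 fold changes were the largest among the members, 2.18 ± 0.70 (adjusted p = 0.0295) and 2.37 ± 0.73 (adjusted p = 0.0244), and each primed group lay above its comparator group. These calls rest on few counts, and leaving out Con replicate 1, 2 or 3 or GTA+5-Aza replicate 2 or 3 ended the first, with adjusted p up to 0.127. The second was lost without CPT replicate 2 or 3 or CPT+GTA+5-Aza replicate 2 or 3, with adjusted p up to 0.0811. Its chromosome 4 neighbour HERC6 ranged from 1.00 to 1.37 CPM in Con and from 0.855 to 0.952 in GTA+5-Aza (-0.36 ± 0.59, not passing the test). With CPT the log2 difference of HERC6 was 0.41 ± 0.61, also not passing the test. TRIM25, an E3 ligase that also activates the RNA sensor RIG-I, was the most abundant member called higher, at 122, 130 and 128 CPM in Con and 160, 162 and 158 in GTA+5-Aza. In the CPT groups it moved from 132, 135 and 134 CPM to 158, 157 and 160. Its rise was small, with a small error, at 0.33 ± 0.06 (adjusted p = 0.000205) and 0.24 ± 0.06 (adjusted p = 0.00422). UBA7 and USP18 were not called, USP18 with 5.78, 4.43 and 5.69 CPM in Con and 6.04, 6.91 and 6.32 in GTA+5-Aza. UBA7 did not exceed 1.10 CPM in any library.

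**Figure D2:**
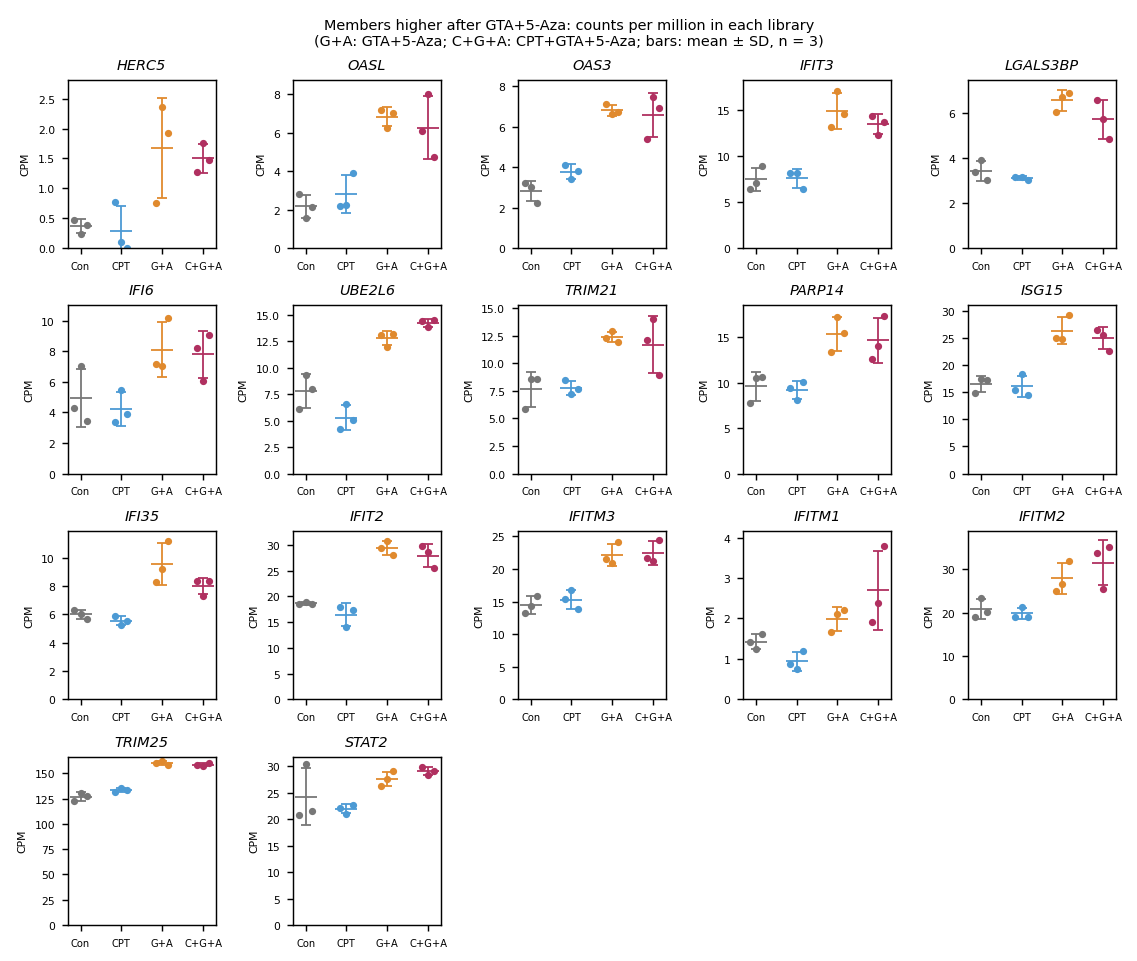
CPM in each library (points) with mean ± SD (bars, n = 3) for the 17 members called higher in GTA+5-Aza against Con, in CPT+GTA+5-Aza against CPT, or in both, each axis starting at 0. The means of the primed groups (right in each panel) are above those of the unprimed groups, single libraries overlap for HERC5, IFI6 and STAT2, and TRIM25 at 158 to 162 CPM against 122 to 135 shows the least spread.

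The IFITM proteins sit in membranes and block virus fusion, and their 3 genes are neighbours near the end of the short arm of chromosome 11. IFITM3 stood at 13.2, 14.3 and 15.9 CPM in Con, 15.3, 16.8 and 13.8 in CPT, 21.5, 21.0 and 24.1 in GTA+5-Aza and 21.7, 21.2 and 24.5 in CPT+GTA+5-Aza. It rose by a log2 fold change of 0.62 ± 0.12 (adjusted p = 0.000856) and 0.55 ± 0.12 (adjusted p = 0.00260). IFITM2 rose by 0.42 ± 0.13 (adjusted p = 0.0226), from 18.9, 23.3 and 20.2 CPM in Con to 25.1, 26.6 and 31.9 in GTA+5-Aza. That call was lost without Con replicate 1 or 3 or GTA+5-Aza replicate 3, and with the GC trend of each library removed, with adjusted p up to 0.160. With CPT it rose by 0.67 ± 0.13 (adjusted p = 0.000578), from 19.0, 21.3 and 19.0 CPM to 33.8, 25.5 and 35.1. IFITM1 was much lower. It stood at 1.42, 1.24 and 1.60 CPM in Con and 1.66, 2.10 and 2.202 in GTA+5-Aza, a log2 difference of 0.48 ± 0.37 that did not pass the test. With CPT it rose from 0.880, 0.738 and 1.20 CPM to 1.90, 2.38 and 3.80, by 1.51 ± 0.38 (adjusted p = 0.00682), and leaving out CPT+GTA+5-Aza replicate 3 ended that call (adjusted p = 0.0688). The difference between the effects of priming with and without CPT was 1.03 ± 0.53 on the log2 scale (95% interval -0.07 to 2.13), and did not pass the test. Their coding parts resemble each other closely, so the split of reads among the 3 genes is uncertain. In GENCODE release 44, exons of IFITM1 and IFITM2 also overlap ENSG00000288681 on the same strand. Exons of IFIT2, TRIM25 and IFI6 likewise overlap those of ENSG00000232110, C17orf67 and LINC02574. How reads in such overlaps were assigned is not known here.

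Among the interferon-induced genes named IFI, 2 of 4 tested were called. IFI35, which binds the factor NMI in the cytoplasm, stood at 6.31, 6.05 and 5.64 CPM in Con, 5.88, 5.26 and 5.51 in CPT, 8.28, 9.17 and 11.2 in GTA+5-Aza and 8.35, 7.32 and 8.33 in CPT+GTA+5-Aza. Its log2 fold changes were 0.67 ± 0.17 (adjusted p = 0.00721) and 0.53 ± 0.18 (adjusted p = 0.0382). The first was lost without GTA+5-Aza replicate 3 and the second under 9 of 15 alternatives, among them each library left out in turn, with adjusted p up to 0.113. IFI6, a membrane protein that limits cell death, stood at 4.26, 7.05 and 3.45 CPM in Con and at 7.16, 7.01 and 10.2 in GTA+5-Aza, so that these groups overlapped. It was at 3.35, 5.46 and 3.88 CPM in CPT and at 8.24, 6.07 and 9.06 in CPT+GTA+5-Aza, without overlap. The log2 fold changes of IFI6 were 0.72 ± 0.24 (adjusted p = 0.0415) and 0.87 ± 0.25 (adjusted p = 0.0152). The first call was lost without Con replicate 1 or 3 or GTA+5-Aza replicate 1 or 3, or with the GC trend removed (adjusted p up to 0.237), and the second without CPT replicate 1 or CPT+GTA+5-Aza replicate 1 or 3 (up to 0.0883). IFI27 and IFI44 stayed at or below 0.751 and 0.641 CPM in every library.

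The PARP members transfer ADP-ribose, and PARP9 works with the ligase DTX3L. PARP14 stood at 7.73, 10.5 and 10.6 CPM in Con, 9.46, 8.12 and 10.0 in CPT, 13.4, 17.2 and 15.5 in GTA+5-Aza and 12.6, 14.0 and 17.4 in CPT+GTA+5-Aza. It rose by a log2 fold change of 0.68 ± 0.16 (adjusted p = 0.00366) and 0.67 ± 0.16 (adjusted p = 0.00455). PARP9 (0.32 ± 0.13), PARP12 (0.22 ± 0.21) and DTX3L (0.06 ± 0.10) did not pass the test in GTA+5-Aza against Con. DTX3L and PARP9 are read from overlapping ends of the same stretch of chromosome 3, on opposite strands. TRIM21, a ligase that binds antibody on incoming viruses, stood at 5.84, 8.53 and 8.56 CPM in Con, 8.47, 7.18 and 7.64 in CPT, 12.3, 12.9 and 11.97 in GTA+5-Aza and 12.1, 14.0 and 8.94 in CPT+GTA+5-Aza. Its log2 fold changes were 0.69 ± 0.17 (adjusted p = 0.00621) and 0.59 ± 0.18 (adjusted p = 0.0200). The first was lost without Con replicate 1 (adjusted p = 0.0580) and the second without CPT+GTA+5-Aza replicate 1 or 2 (up to 0.152). TRIM22 had 0 to 9 counts per library. LGALS3BP, a secreted glycoprotein, stood at 3.37, 3.91 and 3.01 CPM in Con, 3.13, 3.15 and 3.002 in CPT, 6.04, 6.71 and 6.89 in GTA+5-Aza and 6.55, 5.73 and 4.84 in CPT+GTA+5-Aza. It rose by 0.93 ± 0.21 (adjusted p = 0.00250) and 0.88 ± 0.21 (adjusted p = 0.00479), and its primed libraries were above every unprimed one.

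Per kilobase of exon, the highest levels in Con were those of ADAR (38.9 CPM per kilobase), ISG15 (19.0), EIF2AK2 (18.9), IFITM2 (13.0) and TRIM25 (10.2). ADAR, which edits adenosine in double-stranded RNA, stood at 493, 469 and 467 CPM in Con and 473, 504 and 492 in GTA+5-Aza (0.04 ± 0.05). EIF2AK2, the kinase PKR, which halts translation on double-stranded RNA, stood at 211, 195 and 220 CPM in Con and 189, 184 and 174 in GTA+5-Aza, and 220, 180 and 213 in CPT and 188, 179 and 180 in CPT+GTA+5-Aza. It overlaps GPATCH11 on the other strand, so its counts carry the same uncertainty about strand as those of IFIT2 and IFIT3. It was the only member called lower, by -0.19 ± 0.07 (adjusted p = 0.0493), and the call was lost under 8 of 15 alternatives, with adjusted p up to 0.216. With CPT it was -0.16 ± 0.07 and not called. STAT2 stood at 20.8, 30.5 and 21.5 CPM in Con, 22.1, 21.1 and 22.7 in CPT, 26.3, 27.6 and 29.0 in GTA+5-Aza and 29.95, 28.4 and 29.0 in CPT+GTA+5-Aza. It rose with CPT by 0.41 ± 0.12 (adjusted p = 0.0215), and was at 0.19 ± 0.12 without, where Con replicate 2 lay above the primed libraries. The call was lost without CPT replicate 1 or any CPT+GTA+5-Aza library (adjusted p up to 0.0749). The nuclear body genes PML, SP100 and SP110 did not pass the test in either comparison (log2 differences from -0.06 to 0.48). MX1 did not exceed 1.22 CPM in any library, and MX2, at 12.8 to 18.2 CPM, had log2 differences of 0.05 ± 0.14 and -0.12 ± 0.14.

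**Figure D3:**
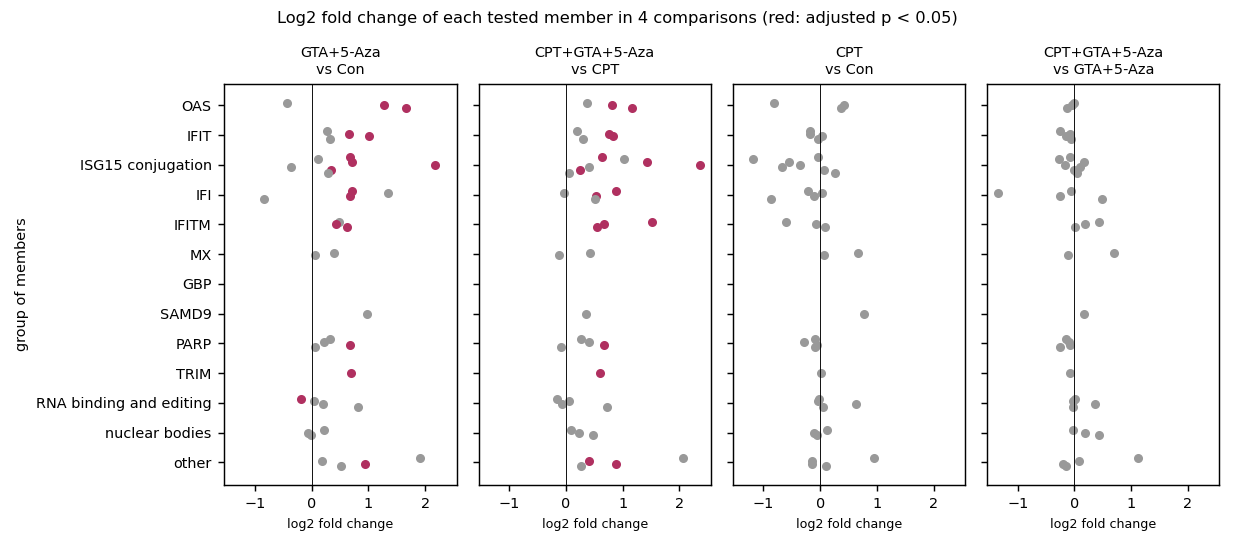
Log2 fold change of each tested member in 4 comparisons, 1 panel each, with members grouped by family or role on the vertical axis and those at an adjusted p below 0.05 in red. Red points occur in both GTA+5-Aza panels (16 and 17) and in neither CPT panel, and the GBP row is empty because neither GBP1 nor GBP2 had enough counts.

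BST2, the tethering protein of budding virus, had log2 differences of 1.90 ± 0.88 (adjusted p = 0.148) and 2.07 ± 0.79 (adjusted p = 0.0726), at 0.473, 0 and 0.0972 CPM in Con, 0, 0.689 and 0.382 in CPT, 0.855, 0.701 and 0.565 in GTA+5-Aza and 2.11, 1.87 and 0.612 in CPT+GTA+5-Aza. It was not called in either comparison. The members SAMD9, ISG20, DDX60 and PLSCR1 were also not called.

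The genes that failed the filter on low counts were OAS1, IFI44L, GBP1, GBP2, SAMD9L, TRIM22, RSAD2, CMPK2, XAF1, EPSTI1 and RTP4. IFI44L and EPSTI1 had 0 counts in all 12 libraries, XAF1 had 1 count in all, and RTP4 had 3. CMPK2 had 0, 1 and 2 counts in Con, 0, 0 and 1 in CPT, 1, 6 and 1 in GTA+5-Aza and 4, 8 and 2 in CPT+GTA+5-Aza. RSAD2 (viperin), which overlaps CMPK2 at its start, had 5, 3 and 4 counts in Con, 9, 2 and 4 in CPT, 8, 7 and 12 in GTA+5-Aza and 17, 2 and 1 in CPT+GTA+5-Aza. SAMD9L had 4, 6 and 0 counts in Con and 0 in every GTA+5-Aza library. Differences in these genes were not detectable at this depth.

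CPT alone moved none of the members past the threshold. In CPT against Con, 0 of 40 were called, as were 0% of all genes, and 1 member had an unadjusted P below 0.05, against 4.28% of all genes. This was UBE2L6, with a log2 difference of -0.56 ± 0.18 (adjusted p = 0.998). The 95% intervals of 21 members lay within a 1.5-fold change, and the median log2 difference was -0.05. In primed cells, CPT+GTA+5-Aza against GTA+5-Aza called 0 members and 0% of all genes. An unadjusted P below 0.05 was found for IFIT1 (-0.25 ± 0.11), DTX3L (-0.25 ± 0.10) and SP110 (0.43 ± 0.18), against 2.71% of all genes. Here the intervals of 24 members lay within 1.5-fold. The test of the difference itself, the interaction of CPT with priming, also called 0 members and 0% of genes, and 2.63% of all genes had an unadjusted P below 0.05. UBE2L6 was the only member among them (a log2 difference of 0.72 ± 0.24, 95% interval 0.22 to 1.22), and did not pass after adjustment.

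The other genes of the pathway, 38 in a list by role, gave 8 calls higher and 1 lower among 27 tested without CPT, where 9.95% of all genes were called higher and 7.53% lower. With CPT, 5 were higher and 0 lower, against 9.57% and 7.39% of all genes. Unlike those of the members, the calls of these pathway genes and of the cell markers were not checked under the alternatives. This includes calls near the threshold, such as those of IRF7 and IFIH1 given below. The list held 9 interferon genes, IFNA1, IFNA2, IFNB1, IFNE, IFNK, IFNG, IFNL1, IFNL2 and IFNL3, and other interferon genes were not looked up. None of the 9 had more than 2 counts in any library, and 7 had 0 in all 12. Among the receptors, IFNAR2 (0.51 ± 0.12, adjusted p = 0.00411) and IFNGR2 (0.32 ± 0.07, adjusted p = 0.00252) rose without CPT, and neither was called with it. IFNLR1, the type III receptor chain, had log2 differences of 1.04 ± 0.40 and 1.11 ± 0.42 that did not pass the test, and IFNAR1, IFNGR1 and IL10RB were not called. The kinases JAK1, JAK2 and TYK2 were not called. IRF9, the DNA-binding partner of STAT2, stood at 0.385 to 2.16 CPM.

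Among the regulatory factors, IRF1 rose from 9.62, 10.8 and 12.7 CPM in Con to 15.3, 18.2 and 20.2 in GTA+5-Aza, by 0.69 ± 0.15 (adjusted p = 0.00190), and by 0.58 ± 0.15 (adjusted p = 0.00783) with CPT. IRF3 rose by 0.42 ± 0.09 (adjusted p = 0.00163) and 0.41 ± 0.09 (adjusted p = 0.00248), and IRF5 by 0.54 ± 0.17 (adjusted p = 0.0287) and 0.74 ± 0.18 (adjusted p = 0.00406). IRF7 was lower in GTA+5-Aza, at 3.90, 1.40 and 2.60 CPM against 3.94, 5.81 and 5.45 in Con (-0.95 ± 0.32, adjusted p = 0.0426), and was not called with CPT (-0.43 ± 0.33). Among the sensors, STING1 rose from 1.47, 2.48 and 1.56 CPM to 4.01, 4.16 and 4.63 (1.21 ± 0.32, adjusted p = 0.00883) and by 1.65 ± 0.34 (adjusted p = 0.00105) with CPT. RIGI (0.66 ± 0.19, adjusted p = 0.0179) and IFIH1 (1.54 ± 0.54, adjusted p = 0.0487), the cytoplasmic double-stranded RNA sensors, were called without CPT. With CPT they had log2 differences of 0.48 ± 0.19 and 1.42 ± 0.52, and missed the threshold. CGAS, the DNA sensor upstream of STING1, was called in CPT+GTA+5-Aza against CPT (0.29 ± 0.09, adjusted p = 0.0311) and not in GTA+5-Aza against Con (0.12 ± 0.09). DHX58, MAVS, TLR3, TBK1 and IRF2 were not called, IKBKE and IRF8 had too few counts for a test, and none of the 4 negative regulators was called in either comparison.

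**Figure D4:**
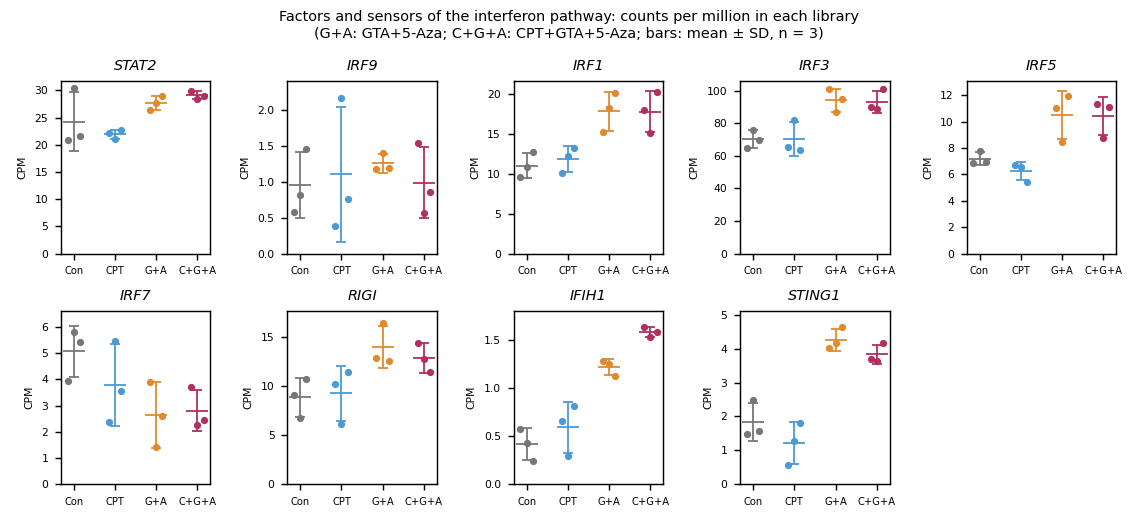
CPM in each library (points) with mean ± SD (bars, n = 3) for 8 factors and sensors of the interferon pathway and for STAT2, each axis starting at 0. IRF1, IRF3, IRF5 and STING1 are higher in both primed groups, and IRF7 is lower in GTA+5-Aza than in Con.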

How the data were processed

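Per the submitters' processing notes and the methods, reads were trimmed (Trim Galore), mapped to GRCh38 (HISAT2 2.2.1) and assigned to genes (HTSeq). The files deposited by the authors hold whole-number counts, not normalized. The annotation release and the strand setting are not given in the sources used here. Identifiers were matched to symbols and exon lengths through GENCODE release 44. Counts were analysed in R with edgeR 4.0.16. Genes were kept by filterByExpr over the 4 groups, which left 17123, and glmQLFit and glmQLFTest with TMM scaling were applied to all 12 libraries in 1 fit. P-values were adjusted by Benjamini-Hochberg over all genes tested, and a call is an adjusted p below 0.05. Standard errors are the log2 fold change divided by the root of the F statistic. CPM used TMM-scaled library sizes. The script was tested on simulated data. Alternatives included DESeq2 1.42.0, other scalings and filters, the replicate block and leaving out each library. By rule, values in every library were given for members called in either comparison of primed with unprimed cells. The members and lists were chosen with earlier results of these data known. Intervals cover counting error and the spread between libraries. No 2 libraries of a group agreed within sampling noise. 1 further gene of the pathway was left out of the list and is not reported here.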

Additional observations from a re-analysis of the deposited data

How the results depend on the processing

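Leaving out each library in turn gave 12 to 15 members called higher and 0 to 1 lower in GTA+5-Aza against Con, and 12 to 16 higher and 0 to 1 lower in CPT+GTA+5-Aza against CPT, where the 1 lower call came without CPT replicate 2. A test against a fold change of 1.5 (glmTreat) called 2 members higher and 0 lower in the first comparison and 1 higher in the second, and the DEG criterion 15 and 14 higher. Under the other 15 alternatives, 10 of the 15 and 10 of the 17 higher calls held in each. Calls were gained in GTA+5-Aza against Con by IFIT5 (5 alternatives), IFIT1 and PARP9 (2 each) and PLSCR1, STAT2 and BST2 (1 each). The 1 lower call, EIF2AK2, became 0 with library size alone, with the likelihood ratio test, by the DEG criterion and with the trend of each library with GC content removed, an alternative chosen after seeing the data. By the DEG criterion, the interaction of CPT and priming gave 1 member higher. With the replicate block, 15 members were higher and 1 lower without CPT and 17 higher and 0 lower with it. Same-numbered libraries deviated together in 1 of 18 pairs (correlation over 0.1), and 4 of 12 libraries correlated best with their own number. Correlations ran from -0.084 to 0.117 between same-numbered libraries and from -0.097 to 0.071 between the others. This check did not show pairing by number, and with 3 libraries in each group it cannot exclude it.

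The log2 difference in GTA+5-Aza against Con changed sign only in members that were not called. Leaving out a library gave -0.99 to 0.31 for OAS2, -0.25 to 0.71 for UBA7, -0.086 to 0.16 for MX2, -0.046 to 0.39 for PARP12, -0.0060 to 0.16 for DTX3L, -0.0014 to 0.51 for DDX60 and -0.12 to 0.12 for SP110. With the GC trend removed, UBA7 was at -0.014, SP100 at 0.0061 and SP110 at 0.042, and with library size alone SP110 was at 0.023. The log2 fold changes of all genes correlated with GC content (Spearman 0.258 and 0.235), and the tested members had a median GC content of 49.4% against 48.4% of all genes. Depth limits the 11 members that failed the filter.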
